A study of Mus musculus with 8 samples.

Results

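The 10 genes described here encode the 5 NF-kappaB subunits (Nfkb1, Nfkb2, Rel, Rela and Relb), the inhibitors Nfkbia, Nfkbib, Nfkbie and Nfkbiz, and the ubiquitin-editing enzyme A20 (Tnfaip3). They were chosen by name, found by gene symbol in the deposited table, and make up 10 of its 25367 genes. All 10 passed the filter on low counts and entered the test. The RNA came from group 2 innate lymphoid cells (ILC2s), tissue lymphocytes that lack antigen receptors and release IL-5 and IL-13, sorted from the large intestine of wild-type C57BL/6 mice. Both groups had been grown for 5 days in IMDM-based medium with IL-33, IL-25, IL-7 and IL-2 at 10 ng/mL each. One group of 4 libraries then received vehicle and the other group of 4 received SC-57461A, an inhibitor of leukotriene A4 hydrolase, for 16 hours. The dose of the compound, the nature of the vehicle, the age and sex of the mice and any pooling of animals are absent from the labels, nor is it stated whether the cytokines stayed in the medium during the 16 hours. Nothing says that the 4 replicates came from separate mice or cultures, and the p-values below therefore reflect the scatter among these 8 libraries, some or all of which may be technical.

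NF-kappaB is a family of dimeric transcription factors held in the cytoplasm by inhibitors of kappaB (IkB proteins). Receptors such as those for IL-33 (through MyD88, IRAK kinases and TRAF6) and IL-25 (through ACT1) activate the IkB kinase complex, which marks IkB proteins for destruction and frees dimers such as p50 and RelA. Several of the inhibitor and subunit genes are themselves induced by NF-kappaB, which closes a feedback loop, and in ILC2s the pathway takes part in the induction of type 2 cytokines by IL-33. Activation is set mainly by protein destruction, phosphorylation and nuclear entry, none of which was measured.

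Promoter sequences are shown for 4 members because they carry the letters that NF-kappaB dimers are known to bind and so bear on the feedback described above. RefSeq windows from 250 bases before to 50 bases after the transcription start (GRCm38.p6) were found for 7 of the 10 members. Nfkb1, Relb and Nfkbiz had no entry. Each window below is written 5′ to 3′ on the gene's strand, in lower case, with capitals marking every match, on either strand, to the 10-letter kappaB consensus motif.
Nfkbia, chr12:55492598-55492897, minus strand: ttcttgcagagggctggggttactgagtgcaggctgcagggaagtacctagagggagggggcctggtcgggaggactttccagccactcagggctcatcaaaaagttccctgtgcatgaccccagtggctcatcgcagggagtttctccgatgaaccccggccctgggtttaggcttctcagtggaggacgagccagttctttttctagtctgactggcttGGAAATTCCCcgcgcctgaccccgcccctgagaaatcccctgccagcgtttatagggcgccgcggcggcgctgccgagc
Tnfaip3, chr10:19015361-19015660, minus strand: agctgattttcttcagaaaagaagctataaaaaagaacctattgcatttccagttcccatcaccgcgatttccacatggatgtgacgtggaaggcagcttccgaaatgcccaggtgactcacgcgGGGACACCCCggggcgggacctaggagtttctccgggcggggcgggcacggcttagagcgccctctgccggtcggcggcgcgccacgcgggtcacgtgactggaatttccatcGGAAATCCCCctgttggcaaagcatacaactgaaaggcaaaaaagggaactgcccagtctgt
Rel, chr11:23770920-23771219, minus strand: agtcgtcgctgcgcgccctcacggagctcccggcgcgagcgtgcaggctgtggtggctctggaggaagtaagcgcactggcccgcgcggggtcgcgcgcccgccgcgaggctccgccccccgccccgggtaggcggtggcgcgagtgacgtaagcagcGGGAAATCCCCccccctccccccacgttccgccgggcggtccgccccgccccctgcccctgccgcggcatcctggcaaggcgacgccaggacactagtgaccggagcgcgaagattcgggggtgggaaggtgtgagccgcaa
Nfkb2, chr19:46304487-46304786, plus strand: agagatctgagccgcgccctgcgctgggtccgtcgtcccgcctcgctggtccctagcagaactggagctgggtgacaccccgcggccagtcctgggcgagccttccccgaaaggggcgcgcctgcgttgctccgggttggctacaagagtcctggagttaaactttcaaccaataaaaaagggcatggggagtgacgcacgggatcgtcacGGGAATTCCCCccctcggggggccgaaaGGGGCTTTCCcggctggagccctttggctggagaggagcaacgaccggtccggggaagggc
The Nfkbia window held 1 match, which reads GGGAATTTCC on the opposite strand and starts 29 bases before the transcription start. In the Tnfaip3 window there were 2 matches, GGGACACCCC at 125 bases and GGGGATTTCC, on the opposite strand, at 12 bases before the start. The capitals in the Rel window cover overlapping matches that begin 92 and 91 bases before the start. Those in the Nfkb2 window cover overlapping matches that begin 39 and 38 bases before the start, and the separate match GGGGCTTTCC at 11 bases. Nfkbie, not printed, held GGGGGATTCC at 106 bases before its start, while the windows of Rela and Nfkbib held no match. Of the 10 windows of these 7 genes, 3 belong to Nfkb2 and 2 to Tnfaip3, and 2 of the Nfkb2 windows overlap and share a match. In all, 7 of the 10 windows held the motif, against 4.51% of 32851 windows of the same length. A match is a description of letters and not a measured binding site.

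The libraries held 47376196 to 71155654 counts, and every member had 550 to 35251 counts in each library. As recognised earlier in these data, the 8 libraries fall into 2 sets that cross the treatments. Set A (vehicle replicates 1 and 2, SC-57461A replicates 2 and 3) has FPKM values summing to 390628 to 428541, and set B (vehicle replicates 3 and 4, SC-57461A replicates 1 and 4) to 316414 to 336044. Results are therefore given from the fit without the sets (pooled), from a fit that holds the set as a term (set-adjusted) and from either set alone. The 14 defining ILC2 markers, Gata3, Il1rl1 and Il17rb among them, were all detected in each library, with summed levels of 17000 to 19960 CPM (counts scaled to library size). Markers of other cells were low. The 11 macrophage, monocyte and dendritic cell markers summed to 48.2 to 73.5 CPM in set A and 21.1 to 24.2 CPM in set B, where Lyz2, Csf1r, C1qa and C1qb were at 0, which allows up to 3 counts or 0.0422 to 0.0633 CPM. Epithelial markers summed to 14.4 to 48.8 CPM in set A and 9.31 to 16.5 CPM in set B; within set A both SC-57461A libraries held 38.8 to 48.8 CPM. Neutrophil and mast cell markers summed to 7.12 to 9.51 CPM in set A and 1.64 to 2.84 CPM in set B. T cell markers (10.9 to 17.6 CPM), B and plasma cell markers (14.6 to 18.1 CPM) and endothelial and stromal markers (74.7 to 120.8 CPM) overlapped between the treatments. The 10 markers of ILC3s and ILC1s, with Il17f, Il22 and Il17a as the main contributors, summed to 42.9 to 57.9 CPM in vehicle and 75.5 to 113.9 CPM in SC-57461A, so this list moved with the treatment. NF-kappaB members are made by all these cell types, and in bulk RNA fewer cells of a type and less RNA per cell cannot be told apart. The part of these cells in the results below was not tested.

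Levels of the members were compared with each other on the FPKM scale (fragments scaled to gene length and library size, computed by the authors). Nfkbia, which encodes IkB-alpha, an inhibitor that is rapidly degraded and resynthesised, had the highest mean, 79.9 ± 4.43 FPKM in vehicle and 84.1 ± 8.57 FPKM in SC-57461A (SD, n = 4). Nfkb1, which encodes p105 and its product p50, followed with 68.7 ± 21.9 and 52.2 ± 17.7 FPKM. These 2 genes held the first and second places in every library, and in vehicle they did not differ beyond their spread. Nfkb2, which encodes p100 and p52 of the non-canonical pathway, ranked 3 in every library at 39.2 ± 8.32 FPKM in vehicle. Rela, the main transactivating subunit of the canonical pathway, stood at 30.4 ± 7.91 FPKM. The difference from Nfkb2 was no larger than their spreads together, but Nfkb2 was the higher in each library. The FPKM ratio of Nfkb2 to Rela within a library was 1.21 to 1.46 in vehicle and 1.24 to 1.83 in SC-57461A. Nfkbib (IkB-beta, 22.5 ± 2.6 FPKM) and Nfkbiz (the nuclear IkB-zeta, 22.3 ± 3.5 FPKM) shared the next level. The lowest 4 in vehicle were Relb, Nfkbie (IkB-epsilon), Tnfaip3 and Rel, which encodes c-Rel. They stood at 8.77 ± 2.01, 7.29 ± 0.995, 5.45 ± 1.03 and 4.09 ± 0.684 FPKM, in that order. Each differed from its neighbour by no more than their spreads together. Within single vehicle libraries the ratio of Relb to Nfkbie was 1.04 to 1.32 and that of Nfkbie to Tnfaip3 1.25 to 1.47. With SC-57461A these ratios were 0.946 to 1.05 and 0.928 to 1.46. The ratio of Rel to Tnfaip3 was 0.513 to 1.11 in vehicle. Among the genes tested, the level of Nfkbia lay at percentiles 95.2 to 96.0 of its library and that of Rel at no more than 53.9.

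The gene lengths behind the FPKM values are not stated. They can be read back from counts and FPKM as 1785 bases for Nfkbia to 8187 for Tnfaip3. For Rel the length read back was 3171 bases, while its longest GENCODE M21 transcript has 7466, so the place of Rel depends on the annotation used. Among the 3 IkB genes, Nfkbia supplied 71.6% to 77.0% of the summed FPKM over all libraries. Among the 5 subunit genes, Nfkb1 supplied 42.1% to 48.2% in vehicle and 36.0% to 44.9% in SC-57461A, ranges that overlap over all 8 libraries. Within each set they did not: in set A the share was 42.05% to 42.28% in vehicle and 35.97% to 36.33% in SC-57461A, and in set B it was 47.07% to 48.15% and 43.3% to 44.85%. The share of Nfkb2 moved the other way, from 26.39% to 28.5% up to 34.2% to 34.33% in set A. In set B it was 24.85% to 24.96% in vehicle and 27.4% to 28.07% in SC-57461A. With 2 libraries per treatment in a set this is common: in CPM, 19.9% of all genes did not overlap within both sets in the same direction. The shares are parts of the same sum, so a lower Nfkb1 alone raises the share of Nfkb2. The log2 fold change of Nfkb2 itself was 0.14 in set A alone and -0.083 in set B alone, and neither passed. Rela supplied 18.7% to 22.04% in all libraries and Rel 1.69% to 4.21%.

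**Figure D1:**
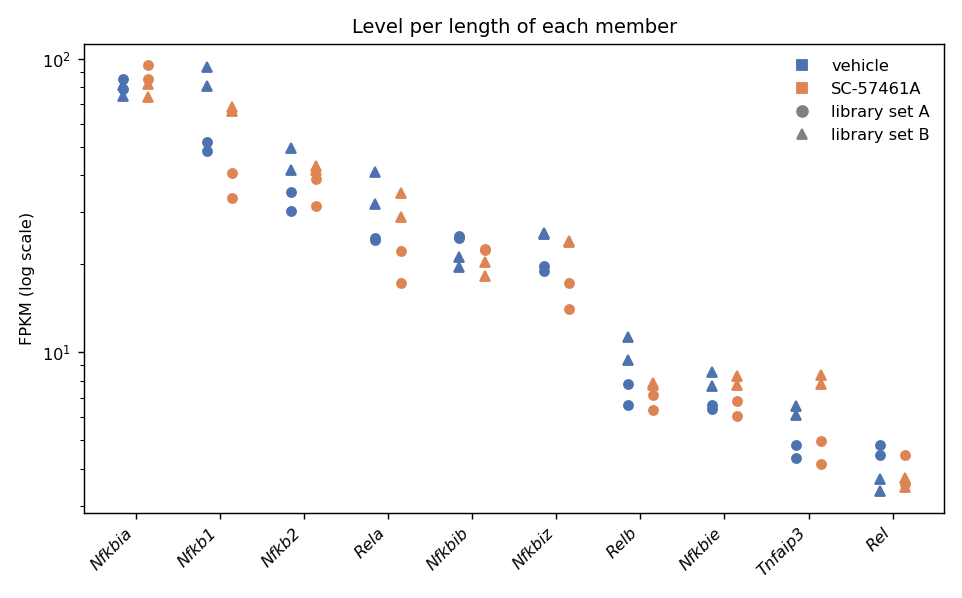
FPKM of the 10 members (log axis) in order of the vehicle mean, with 1 point per library, coloured by treatment and shaped by library set. Nfkbia and Nfkb1 lie highest, and Nfkb2 ranks 3 in each library.

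The comparison of SC-57461A with vehicle asks whether transcripts of the NF-kappaB family change in ILC2s that receive the leukotriene A4 hydrolase inhibitor. In the pooled fit none of the 10 members passed as higher or lower (edgeR, adjusted p under 0.05), where 0.331% of 15095 genes passed. None had an unadjusted p under 0.05 either, where 6.68% of genes did, and DESeq2 called none beside 1.44% of its genes. In simulated data the pooled fit recovered 1.7% of changes of 0.5 on the log2 scale, and the fit with the set term 63.6%. The lack of pooled calls therefore cannot show whether any member changed by that much. In the set-adjusted fit 1 member passed: Nfkb1 was lower with SC-57461A, at 0.771-fold. That fit called 5.33% of all genes, 2.5% as lower, so 1 of 10 is near the background. In the same model in DESeq2 1 member passed beside 12.5% of genes. An unadjusted p under 0.05 was reached by 5 members in the set-adjusted fit (22.4% of genes). From set A alone no member passed (0.624% of genes did) and 2 had an unadjusted p under 0.05 (14.3%), and from set B alone the numbers were 0 (0.681%) and 3 (13.7%). No member passed the test of a difference in response between the sets, which 0.00662% of genes passed. For none of the 10 did the 4 values of one treatment lie above all 4 of the other, a pattern seen in 6.13% of genes. The median log2 fold change of the members was -0.082 pooled and -0.072 set-adjusted, beside 0.0094 and 0.0044 over all genes tested. Lta4h itself, the target of the compound, was at 113 ± 7.16 CPM with vehicle and 109 ± 3.67 CPM with SC-57461A (SD, n = 4) and did not pass.

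**Figure D2:**
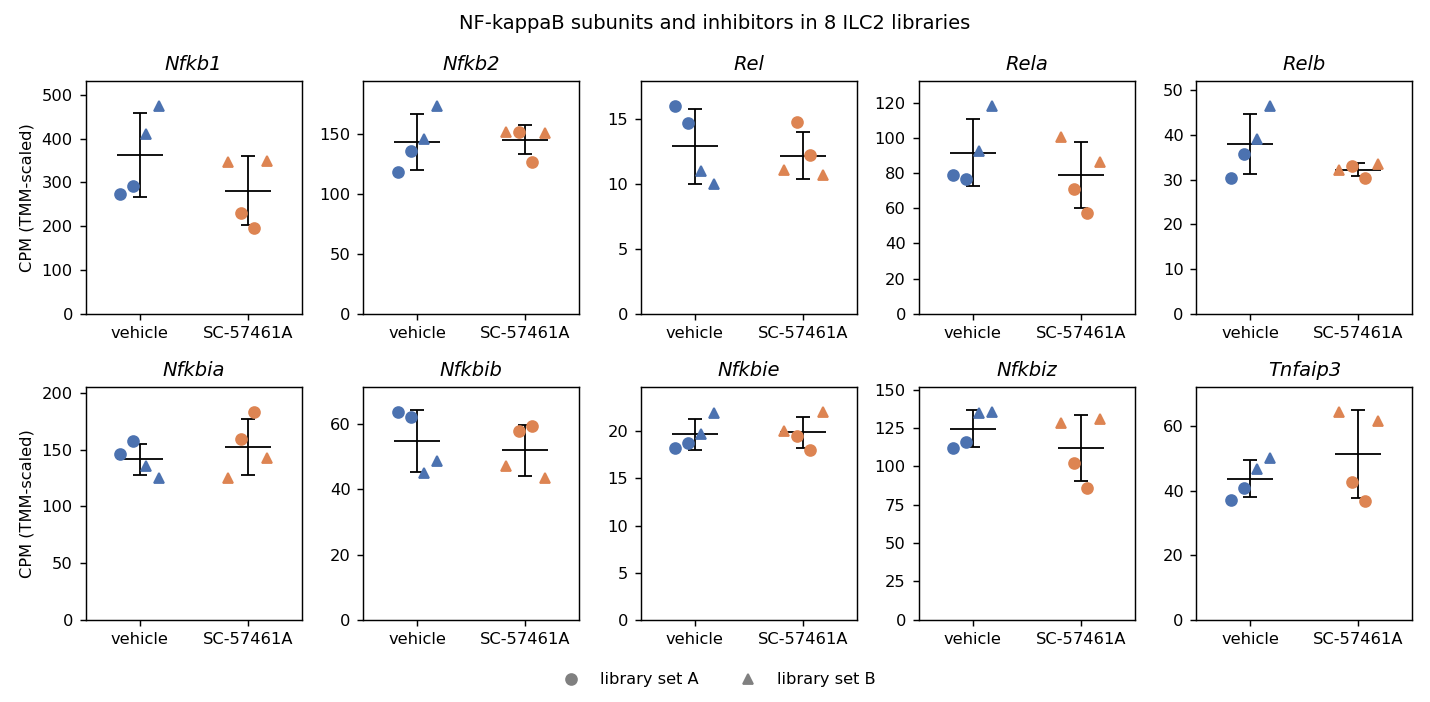
TMM-scaled CPM of each member (vertical axes from 0) in the 4 vehicle and 4 SC-57461A libraries, circles for library set A and triangles for set B, with the mean and SD as bars. The treatments overlap for all 10 members, and the Nfkb1 values of set B lie above those of set A.

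Of the canonical subunits, Nfkb1 had the largest difference. Nfkb1 (ENSMUSG00000028163, chromosome 3, 135584655 to 135691546 in mm10) had 274.6, 291.6, 410.0 and 474.9 CPM in vehicle replicates 1 to 4 and 347.9, 231.2, 195.7 and 349.3 CPM in SC-57461A replicates 1 to 4. The treatments overlapped over all 8 libraries, but within set A both vehicle libraries lay above both SC-57461A libraries, and the same held within set B. The pooled log2 fold change was -0.37 ± 0.25 (SE, edgeR adjusted p = 0.904; 95% interval -0.93 to 0.20). With the set as a term it was -0.38 ± 0.073 (edgeR adjusted p = 0.0145), with an interval of 0.690-fold to 0.862-fold. From set A alone it was -0.40 and from set B alone -0.35, each with an edgeR adjusted p of 0.195, and the response did not pass a test of a difference between the sets (edgeR adjusted p = 0.980). When 1 library was left out, Nfkb1 passed in 5 of 8 set-adjusted fits, with log2 values of -0.43 to -0.33. Without vehicle replicate 2, vehicle replicate 4 or SC-57461A replicate 4 the values were -0.36, -0.34 and -0.38. Nfkb1 did not pass there, with edgeR adjusted p values of 0.0647, 0.0577 and 0.0671. Those fits called 262, 329 and 249 genes in all, beside 804 with all 8 libraries. Over all genes, 17.7% had a set-adjusted fold change at least this far from 0. Another gene, Gm10217, has transcript sequence at least 95% identical to Nfkb1 over at least 50% of its own length, and was not analysed here.

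Rela and Rel, the transactivating partners in the canonical pathway, did not pass. Rela (ENSMUSG00000024927, chromosome 19, 5637483 to 5648130) had 78.8, 77.0, 92.7 and 118.3 CPM in vehicle and 100.6, 71.2, 57.2 and 86.1 CPM in SC-57461A, replicates 1 to 4. Its 2 SC-57461A libraries lay below both vehicle libraries in set A, while the treatments overlapped in set B. The set-adjusted log2 fold change was -0.23 ± 0.096 (SE, edgeR adjusted p = 0.193), with a 95% interval of 0.738-fold to 0.989-fold before adjustment over genes. Rel (ENSMUSG00000020275, chromosome 11, 23741514 to 23770970) ranged from 9.97 to 16.0 CPM in vehicle and 10.7 to 14.8 CPM in SC-57461A. Its set-adjusted log2 fold change of -0.067 ± 0.10 had an interval of 0.818-fold to 1.11-fold, and the treatments overlapped in both sets.

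The non-canonical subunits gave different values from each other. Nfkb2 (ENSMUSG00000025225, chromosome 19, 46304737 to 46312090) had 117.9, 136.0, 145.6 and 173.3 CPM in vehicle and 151.5, 151.9, 126.8 and 150.5 CPM in SC-57461A, a narrower range that lies inside that of vehicle. Its set-adjusted log2 fold change was 0.027 ± 0.088 (edgeR adjusted p = 0.895), with an interval of 0.892-fold to 1.17-fold. Exons of Nfkb2 overlap Psd and the noncoding gene AC114539.1 on the opposite strand, and no source used here says whether counting used strand, which leaves their share in these counts uncertain. Relb (ENSMUSG00000002983, chromosome 7, 19606217 to 19629438), the partner of p52, had 30.4, 35.6, 39.0 and 46.5 CPM in vehicle and 32.1, 33.0, 30.2 and 33.4 CPM in SC-57461A. The SC-57461A libraries were close together and at the low end of the vehicle range, below both vehicle libraries of their set in set B. Relb had a pooled log2 fold change of -0.24 ± 0.13 (edgeR adjusted p = 0.848), the smallest p of the members in that fit, and a set-adjusted one of -0.22 ± 0.095 (edgeR adjusted p = 0.190), at -0.059 in set A and -0.39 in set B. The 3 tested genes whose centred log2 CPM over the 8 libraries came closest to that of Relb were Nsmf, Exoc7 and Smarcd2, with root mean square differences of 0.066, 0.068 and 0.069.

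None of the classical IkB inhibitors, which retain dimers in the cytoplasm, passed in either fit. Nfkbia (ENSMUSG00000021025, chromosome 12, 55489411 to 55492647), whose promoter is printed above, had 146.3, 158.0, 136.1 and 125.4 CPM in vehicle and 124.9, 159.6, 183.2 and 142.3 CPM in SC-57461A. The highest value was that of SC-57461A replicate 3 and the lowest that of SC-57461A replicate 1, so the treatments overlapped. In set A both SC-57461A libraries lay above both vehicle libraries, replicate 2 by a small margin. The set-adjusted log2 fold change was 0.10 ± 0.075 (edgeR adjusted p = 0.466), with an interval of 0.957-fold to 1.20-fold. Nfkbib (ENSMUSG00000030595, chromosome 7, 28758251 to 28766640) ranged from 44.9 to 63.6 CPM in vehicle and from 43.3 to 59.3 CPM in SC-57461A, and its interval was 0.859-fold to 1.05-fold. Its exons overlap Ccer2 and Sirt2 on the opposite strand. Nfkbie (ENSMUSG00000023947, chromosome 17, 45555716 to 45563169) ranged from 18.26 to 21.97 CPM in vehicle and from 18.02 to 22.03 CPM with SC-57461A, the smallest difference among the members in both fits, with a set-adjusted interval of 0.897-fold to 1.14-fold.

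Nfkbiz encodes IkB-zeta, a nuclear member of the family that modifies transcription in place of retaining dimers in the cytoplasm. Nfkbiz (ENSMUSG00000035356, chromosome 16, 55811375 to 55838899) had 112.1, 116.2, 135.1 and 135.4 CPM in vehicle and 128.0, 102.3, 86.2 and 131.1 CPM in SC-57461A. Within each set both SC-57461A libraries lay below both vehicle libraries, by a small margin in set B. Nfkbiz shares this pattern with Nfkb1, and these 2 of 10 members stand beside 19.9% of all genes with no overlap in the same direction in both sets, 10.3% as lower. Within set A alone 5 members did not overlap (48.1% of genes) and within set B alone 4 (45.8%). The set-adjusted log2 fold change was -0.17 ± 0.074 (edgeR adjusted p = 0.207), with -0.27 in set A and -0.066 in set B.

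Tnfaip3 encodes A20, which removes and adds ubiquitin chains on RIPK1, TRAF6 and other signalling proteins and so limits activation of the IkB kinases. Tnfaip3 (ENSMUSG00000019850, chromosome 10, 19000910 to 19015410) had 37.2, 41.0, 46.9 and 50.2 CPM in vehicle and 64.5, 42.8, 36.9 and 61.8 CPM in SC-57461A. The 2 highest values were those of SC-57461A in set B, while in set A the treatments overlapped. The log2 fold change was 0.37 ± 0.090 in set B alone (edgeR adjusted p = 0.163) and 0.031 ± 0.12 in set A alone (edgeR adjusted p = 0.936). The test of a difference between the sets gave 0.35 ± 0.15 (edgeR adjusted p = 0.907). Tnfaip3 was the 1 member of 10 with an unadjusted p under 0.05 in that test, where 4.96% of genes had one. The set-adjusted log2 fold change over all libraries was 0.20 ± 0.089 (edgeR adjusted p = 0.203), with an interval of 1.01-fold to 1.32-fold before adjustment over genes.

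**Figure D3:**
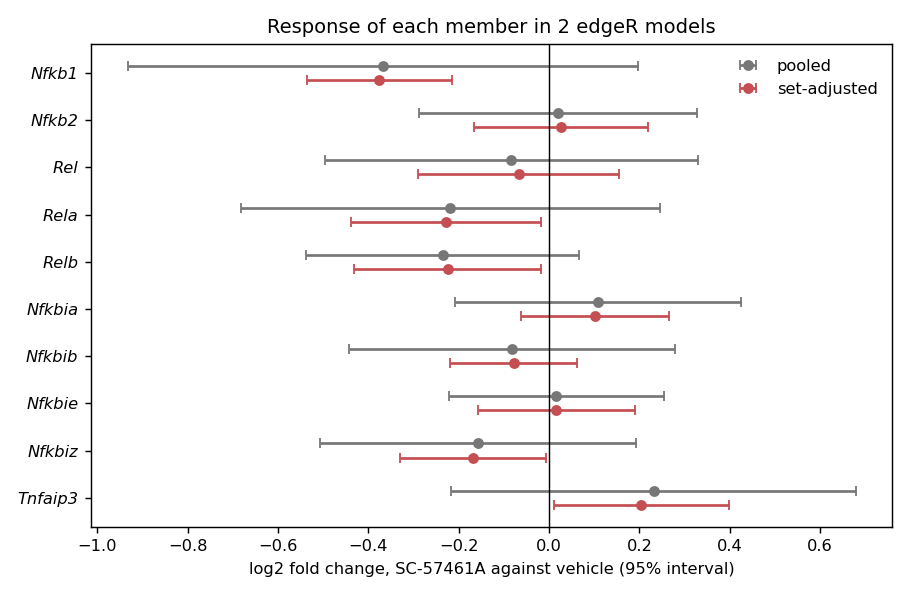
Log2 fold change of SC-57461A against vehicle for each member with its 95% interval, from the pooled fit (grey) and the fit with library set as a term (red). The estimates nearly coincide while the set-adjusted intervals are narrower, and the Nfkb1 interval of that fit runs from -0.54 to -0.22.

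**Figure D4:**
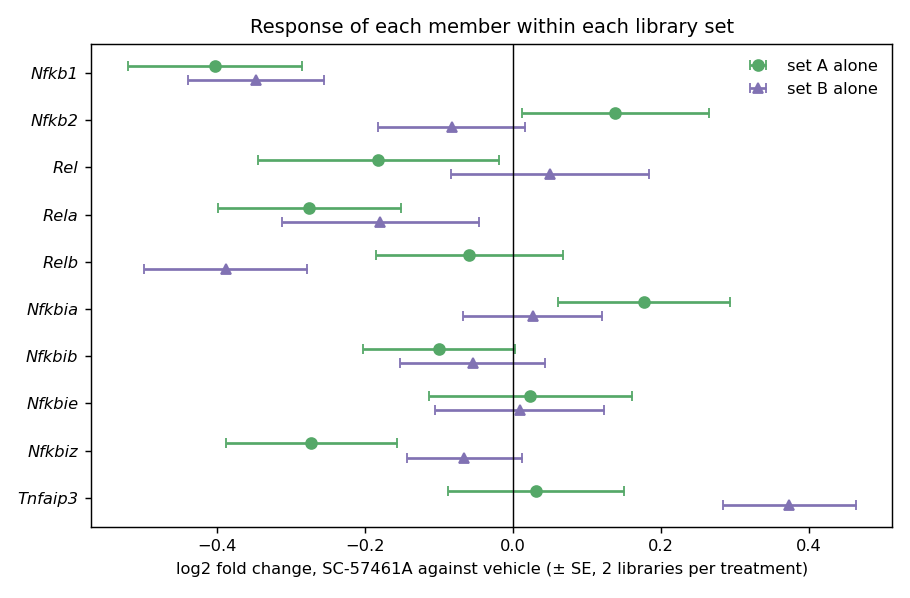
Log2 fold change of SC-57461A against vehicle (± SE) from set A alone (circles) and set B alone (triangles), each with 2 libraries per treatment. Nfkb1 lies at -0.40 and -0.35, whereas Tnfaip3 lies at 0.031 in set A and 0.37 in set B.

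The members also differed between the library sets. In the set-adjusted fit the difference between sets was larger than that between treatments for 9 of the 10 members (Relb is the exception) and for 73.4% of all genes. Its median size over the members was 0.38 on the log2 scale, against 0.14 for the treatment difference, and over all genes tested these medians were 0.36 and 0.16. For 8 members the sets did not overlap, a pattern that 44.0% of all genes show. Nfkb1 (0.68), Rela (0.49), Tnfaip3 (0.49), Nfkbiz (0.35) and Nfkbie (0.17) were higher in set B, as differences in log2 CPM. Rel (-0.43), Nfkbib (-0.40) and Nfkbia (-0.29) were higher in set A. The lengths read back from FPKM were 2742 to 8187 bases for the former 5 genes and 1785 to 3171 for the latter 3. These ranges overlap, and the 3171 bases of Rel stand against 7466 for its longest GENCODE M21 transcript. The part of transcript length was not tested.

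Ratios of members within a library do not depend on how libraries are scaled. Of the 45 ratios between members, 4 did not overlap between the treatments (8.89%), where 6.31% of ratios of a member to any other tested gene did not. The 4 were picked out because they do not overlap. In 3 of them Tnfaip3 was the denominator: the FPKM ratio of Nfkb1 to Tnfaip3 was 10.8 to 14.3 in vehicle and 8.04 to 8.55 in SC-57461A, that of Rela to Tnfaip3 was 5.00 to 6.27 and 3.71 to 4.43, and that of Nfkbiz to Tnfaip3 was 3.88 to 4.35 and 2.86 to 3.45. The remaining one, Nfkb2 to Relb, was 4.41 to 4.58 in vehicle and 4.95 to 5.59 in SC-57461A.

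Other genes of the pathway were read from 4 lists with 120 different genes, of which 103 were tested and 7 stand in more than 1 list. In the pooled fit none passed as higher or lower (edgeR, adjusted p under 0.05). Of the 103 tested, 14 had an unadjusted p under 0.05 beside 6.68% of all genes, and DESeq2 called 2 beside 1.44% of its genes. The set-adjusted fit called 7 higher and 11 lower, 17.5% of those tested beside 5.33% of all genes. All 18 kept their sign when 1 library was left out, which largely follows from picking them by the fit to all 8 libraries. Only Myc and Plau passed in each of those 8 fits, and the others in 0 to 7 of them. Of these 18, those not among the 3 smallest p values of their list in the pooled fit (Nfkbid, Nlrc5, Il17ra, Irak2, Bcl2, Gadd45b, Il2ra and Sod2) are named because they passed.

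Of 23 tested kinases and further inhibitors, 4 were lower and 1 higher in the set-adjusted fit, with a list median of -0.093 beside 0.0044 over all genes. The calls make up 21.74% of this list, beside 5.33% of all genes (2.5% as lower). Bcl3, a nuclear IkB protein that binds p50 and p52 homodimers, had 226.7, 248.6, 189.7 and 246.2 CPM in vehicle and 168.8, 207.7, 180.3 and 155.4 CPM in SC-57461A. One SC-57461A library lay inside the vehicle range, and the set-adjusted log2 fold change was -0.36 (edgeR adjusted p = 0.0413; past in 2 of 8 fits without 1 library). Nfkbid, which encodes the nuclear IkB-NS, had -0.39 (edgeR adjusted p = 0.0486; past in 1 of 8). The kinase gene Ikbke (-0.25) and the NLR family gene Nlrc5 (-0.28) were also lower, and Tnip2, which encodes an A20-binding protein, was higher (0.27; past in 0 of 8). Chuk, Ikbkb and Ikbkg, the 3 parts of the IkB kinase complex, were among those that did not pass.

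Of 22 tested genes that relay IL-33 and IL-25 signals to the IkB kinases, 4 were lower and none higher in the set-adjusted fit (median -0.080). That is 18.18% of the list, beside 5.33% of all genes (2.5% as lower). Irak3, which encodes IRAK-M, a brake on MyD88 signalling, had 83.5, 84.7, 91.5 and 116.1 CPM in vehicle and 77.9, 60.3, 63.6 and 80.6 CPM in SC-57461A. All 4 SC-57461A libraries lay below the 4 vehicle libraries, with a set-adjusted log2 fold change of -0.42 (edgeR adjusted p = 0.0118; past in 7 of 8 fits without 1 library). The treatments did not overlap for 6.13% of all genes. Irak3 was named for its small pooled p, a choice that favours such a separation. The kinase gene Irak2 (-0.36), the receptor subunit gene Il17ra (-0.34) and Rnf31 (-0.34), the catalytic subunit of the linear ubiquitin ligase, each passed in 2 of those 8 fits. Irak4, the first kinase of the MyD88 complex, was at 35.4 ± 3.19 CPM with vehicle and 29.2 ± 0.952 CPM with SC-57461A (SD, n = 4) and did not pass (edgeR adjusted p = 0.0619 set-adjusted).

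Of 21 tested genes of TNF receptor signalling and the non-canonical relay, 2 were lower and none higher in the set-adjusted fit (median -0.085). These 2 genes are 9.52% of the list, beside 5.33% of all genes (2.5% as lower). Prkcq, which encodes a kinase through which antigen receptors reach NF-kappaB in T cells, was among the lower ones (-0.29; past in 3 of 8 fits without 1 library). Traf1, an adaptor gene known as an NF-kappaB target, had 87.8 to 96.3 CPM in vehicle and 103.1 to 112.5 CPM in SC-57461A, without overlap, and did not pass (0.22, edgeR adjusted p = 0.0573 set-adjusted). Like Irak3 it was named for its small pooled p, and 6.13% of all genes did not overlap.

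Among 60 listed NF-kappaB target genes, 44 were tested and 16 did not enter the test, the cytokine genes Il1a and Il1b among them. In the set-adjusted fit 6 were higher and 3 lower, and the list median was 0.053, with 0.034 in set A alone and 0.016 in set B alone. Called targets were 20.45% of those tested, beside 5.33% of all genes. Plau, which encodes urokinase, fell from 92, 75, 98 and 94 counts in vehicle to 33, 21, 24 and 22 counts in SC-57461A, replicates 1 to 4 (log2 -1.57, edgeR adjusted p = 0.00981 set-adjusted; 0.0671 pooled). These are low counts, and the groups were far apart, in a gene named for its small pooled p. Myc had 118.1, 118.6, 98.3 and 132.8 CPM in vehicle and 183.3, 197.1, 161.7 and 164.2 CPM in SC-57461A (log2 0.59, edgeR adjusted p = 0.00582 set-adjusted; 0.171 pooled). Irf4, a transcription factor of activated lymphocytes, was higher by 0.40 (past in 7 of 8 fits without 1 library), as were Bcl2 (0.43), Sod2 (0.41), Gadd45b (0.37) and Il2ra (0.32). Nfkbid and Bcl3, described above, are the other 2 that were lower.

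**Figure D5:**
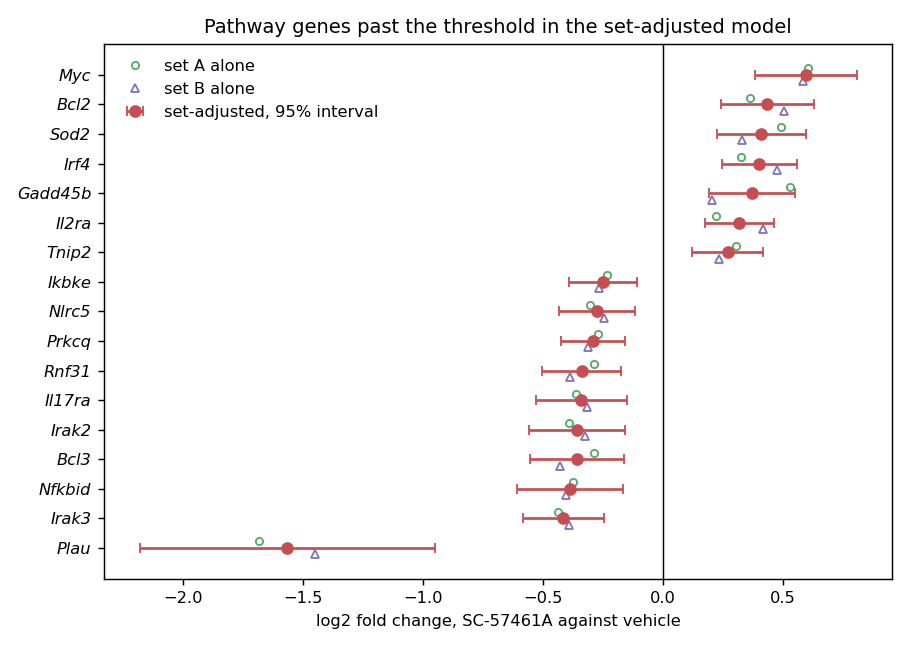
Set-adjusted log2 fold change (95% interval) of 17 of the 18 pathway genes past the threshold in that fit, with the values from set A alone and set B alone as open symbols. Plau lies furthest from 0, and for each of the 17 genes shown both sets lie on the same side of 0. The genes were picked by a fit to both sets together, so this shared side largely follows from the choice.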

How the data were processed

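RNA-seq libraries of total RNA were processed with cutadapt 4.7 and FastQC on genome build mm10, per the submitters' processing notes. Which aligner, counter, annotation or strand setting was used remains not given in the sources used here. One deposited table holds whole-number counts and FPKM values that the authors computed, per the file headers, with 0 value columns left unmatched to a sample. Of 25367 genes, 24998 received a GENCODE M21 symbol by Ensembl identifier. The members, lists, library sets and tests were chosen with earlier results of these data known.

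Counts were filtered with filterByExpr, scaled by TMM and compared by edgeR 4.0.16 (R 4.3.3) with its quasi-likelihood test (two-sided, Benjamini-Hochberg over 15095 genes). Standard errors and 95% intervals come from the quasi-likelihood F statistic and its degrees of freedom, and the intervals of single genes are not adjusted over genes. Library sets were split at the widest gap in summed FPKM. CPM uses TMM factors, except for cell type markers, which use library totals; a count of 0 allows up to 3 counts, counting error only. Named pathway genes are those called in the pooled fit or otherwise the 3 smallest p values of each list. Alternatives used DESeq2 1.42.0, limma 3.58.1 on log2(FPKM + 1) or log2(FPKM + 0.1), other scalings and filters, a replicate block, set terms and leaving out libraries. The fits were tested on simulated data. The result of 1 listed gene is counted but not reported here. The 28 pairs of libraries differed by 15.8 to 534 chi-square per degree of freedom, so none was a repeat deposit. Transcript copies were sought with BLAST 2.17.0; plots used matplotlib 3.10.9, and tables scipy 1.17.1, numpy 2.4.6 and pandas 2.3.3 in Python 3.11.15.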

Additional observations from a re-analysis of the deposited data

Results flagged for a closer look

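Nfkb2 in SC-57461A replicate 3 stood apart from the other libraries of its group, at 126.8 CPM beside 150.5, 151.5 and 151.9 CPM, a gap of 0.945 of the group's range, past the 95% limit of Dixon's test for 4 samples. It was the 1 such group among 46 examined, and chance flags about 1 in 20 groups. The group joins libraries of both sets. Replicate 3 is in set A, where vehicle replicates 1 and 2 had 117.9 and 136.0 CPM and SC-57461A replicate 2 had 151.9 CPM. Without SC-57461A replicate 3 the set-adjusted log2 fold change of Nfkb2 was 0.048, beside 0.027 with it.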

How the results depend on the processing

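Over 30 alternatives to the pooled fit, 7 members kept their sign and 1, Nfkb1, passed in any: in 7 of the 10 fits with a set term, and in none of the others, with log2 values of -0.49 to -0.21. Genes called numbered 50 in the pooled fit, 195 with DESeq2, 804 with the set term, 1518 with the set term in DESeq2, 32 with limma on log2(FPKM + 1) without a filter, 15 with the replicate block, 98 in set A and 102 in set B. Leaving out 1 library gave 28 to 38 genes in the pooled fit, with no member or listed gene. With the set term it gave 422, 879, 503 and 249 genes without SC-57461A replicates 1 to 4 and 325, 262, 973 and 329 without vehicle replicates 1 to 4, and in those fits 0 to 1 members, 0 to 4 genes of the kinase list, 0 to 4 of the IL-33 and IL-25 list, 0 to 3 of the TNF list and 2 to 9 targets. The set term in edgeR and in DESeq2 called 1 and 1 members, 5 and 6 genes of the kinase list, 4 and 6 of the IL-33 and IL-25 list, 2 and 5 of the TNF list, and 9 and 11 targets; targets called numbered 2 with DESeq2 and 1 each with limma without a filter and with a minimum mean of 1 CPM. Vehicle and SC-57461A libraries of the same replicate number had correlations of -0.587, 0.635, -0.561 and 0.608 for numbers 1 to 4. Numbers 2 and 4 join libraries of the same set, and numbers 1 and 3 join libraries of different sets. The correlations were not adjusted for set, so they cannot show whether replicate numbers pair the libraries. With the replicate block no member passed. Signs turned for members near 0. Nfkb2 was -0.0557, -0.0389 and -0.0025 with the set term but without SC-57461A replicate 2, vehicle replicate 1 or vehicle replicate 3, -0.00623 scaled by library totals, -0.000625 and -0.00090 with limma on log2(FPKM + 0.1) and log2(FPKM + 1), -0.00124 without a filter, -0.0826 in set B, and -0.00308, -0.00977, -0.0709 and -0.0178 in the pooled fit without SC-57461A replicate 1 or 2 or vehicle replicate 1 or 2 (0.12 at the other end, without vehicle replicate 4). Nfkbie was -0.0158, -0.00813 and -0.0153 with the set term but without SC-57461A replicate 2 or 4 or vehicle replicate 3, -0.00635 by library totals, -0.0131 and -0.0116 with limma, -0.00339 without a filter, and -0.0353, -0.0257 and -0.0188 in the pooled fit without SC-57461A replicate 4 or vehicle replicate 1 or 2 (0.073 at the other end, without vehicle replicate 4). Rel was 0.000849 with the set term without SC-57461A replicate 3, 0.0501 in set B and 0.031 without vehicle replicate 1 (-0.20 at the other end, without SC-57461A replicate 2), and Lta4h was 0.0291 in set A. The cause was not tested. Every member had 550 counts or more in each library, and fits to 1 set rest on 2 libraries per treatment.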
